A study of Homo sapiens with 9 samples.

Results

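FGF2 and 9 other genes of fibroblast growth factor (FGF) signalling and of its feedback control were followed in SW1783 cells, an established human glioma line. The 10 genes are the ligands FGF2 and FGF5, the receptor FGFR1, the phosphatases DUSP4, DUSP5 and DUSP6, and the inhibitors SPRY2, SPRY4, SPRED1 and SPRED2. They were taken by name from 19775 genes that had a probe set of their own on the array, and 27 probe sets of 54675 measured them alone. All 10 had a probe set above the filter on low values, as did 12505 genes in all, and 24 of their 27 probe sets passed it. The genes were chosen by pathway with the group differences of these same arrays known, so signals and fold changes entered the choice. Their values below are therefore a description, and each adjusted p only places a gene among all genes of the fit.

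The cells had received miRNA duplexes at 50 nM, either miR-376a*A or miR-376a*G or, as control, miR-control, in Lipofectamine RNAiMAX, and their RNA was taken at 24 h. Each group had 3 arrays, given by the labels as biological replicates, and all 9 arrays come from 1 cell line with the same dose, reagent and time. The labels do not say which arrays share a transfection. A and G name the base at the position of miR-376a* that A-to-I editing changes, G standing for the inosine of the edited form. The question stated for the study is which genes each form changes against the control, and the arrays also allow both forms to be set against each other.

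FGFs are secreted ligands that bind FGF receptors together with heparan sulphate, and the receptors signal through RAS, RAF and MEK to the kinase ERK. Active ERK induces its own inhibitors: DUSP phosphatases remove phosphate from ERK, while Sprouty and SPRED proteins act above it, SPRED by bringing neurofibromin to RAS. Transcripts of DUSP6, DUSP4, SPRY2 and SPRY4 are widely used as a readout of ERK activity, and FGF2 is a growth factor long studied in glioma cells.

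The unedited miRNA is shown because its forms set the groups apart. In RefSeq it is listed as hsa-miR-376a-5p, the current name of miR-376a*, in the gene MIR376A1 (GRCh38.p14, chr14:101040788-101040809, plus strand). Capitals mark the seed, bases 2 to 8, which pairs with target transcripts. The sequences of the transfected duplexes were not used here.
hsa-miR-376a-5p: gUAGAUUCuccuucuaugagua

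Promoter entries were found for 7 of the 10 genes, and 3 are shown as the 250 bases before the RefSeq start in GRCh38.p14: DUSP6, higher than control in most probe sets with both forms, FGF5, the ligand that was higher with miR-376a*G, and SPRY2, a feedback gene whose changes stayed small. DUSP6 lies at chr12:89352502-89352751 (minus strand), FGF5 at chr4:80266338-80266587 (plus strand) and SPRY2 at chr13:80341127-80341376 (minus strand). Capitals mark CGGAA, a core bound by ETS factors, and TGACG, the short form of the CREB site, on either strand. TGACTCA, the AP-1 site, was searched for as well and was not in these windows. CGGAA was searched after the longer CCGGAA had given no match in DUSP6.
DUSP6: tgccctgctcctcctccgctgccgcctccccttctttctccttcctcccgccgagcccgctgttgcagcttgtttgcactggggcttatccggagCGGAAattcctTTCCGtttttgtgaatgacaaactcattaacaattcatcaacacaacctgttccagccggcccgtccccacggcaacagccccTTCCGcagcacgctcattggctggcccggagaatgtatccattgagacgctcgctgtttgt
FGF5: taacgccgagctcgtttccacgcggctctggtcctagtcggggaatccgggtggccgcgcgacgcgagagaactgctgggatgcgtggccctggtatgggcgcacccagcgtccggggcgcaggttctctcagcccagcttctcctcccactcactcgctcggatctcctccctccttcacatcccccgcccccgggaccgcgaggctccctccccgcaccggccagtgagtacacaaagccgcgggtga
SPRY2: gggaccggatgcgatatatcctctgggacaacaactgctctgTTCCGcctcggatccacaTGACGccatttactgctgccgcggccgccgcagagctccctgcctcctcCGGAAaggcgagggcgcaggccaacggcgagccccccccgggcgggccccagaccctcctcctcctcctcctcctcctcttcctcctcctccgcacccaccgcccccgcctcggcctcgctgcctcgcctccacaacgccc
DUSP6 held 3 matches of CGGAA, SPRY2 held 2 and 1 match of TGACG, and FGF5 held none of either. FGF2, SPRY4, SPRED1 and SPRED2, whose windows are not shown, held no CGGAA. Of these, FGF2 and SPRY4 held 1 match of TGACG each. Of 35116 promoter windows of this length, 30.3% held CGGAA, 14.5% the longer CCGGAA, 21.2% TGACG and 4.20% TGACTCA. Such matches are letters in a window and describe no binding.

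Signals are the deposited linear intensities, and their trimmed mean was close to 100.01 units on every array. Differences and their SE are on a log2 scale after quantile normalization, from limma, a linear model fitted to all genes at once with all 3 groups. A gene passed, or was called, where its p adjusted over all genes tested was under 0.05. The signals' median per array was between 18.8 and 24.0, and 8 arrays had a rank correlation of 0.969 to 0.970 with their nearest array. Control replicate 1 stood apart, at 0.941, and most results against control below depend on it. Through the spread estimated over all 3 groups, that array also enters the adjusted p between the forms. There 329 of 12505 genes passed with it and 1215 without it. Of the glial and glioma markers VIM, CD44, TNC, SOX9, SLC1A3 and SOX2 passed the filter on low values, while GFAP, S100B, AQP4, OLIG2, NES and FABP7 did not, GFAP having a signal of at most 3.75. SOX2 lay near the filter, with a median signal of 21.3 over the arrays beside 2390 for VIM. All 4 immune markers measured were below the filter, with a summed signal of 17.6 to 44.9. All 6 fibroblast markers passed, with a summed signal of 7248 to 8126 with miR-376a*A, 7005 to 7230 with miR-376a*G and 6741 to 11890 in control. Of the epithelial markers 2 of 5 passed (sums of 1114 to 1347, 1265 to 1427 and 1105 to 1861 in the same order) and of the endothelial markers 2 of 4 (128.5 to 148.0, 110.5 to 144.9 and 155.8 to 204.6). The neuronal list passed in 5 of 6 genes, SYT1 and SNAP25 being its brightest (median signals of 468 and 380). RBFOX3 (20.6) and STMN2 (23.4) lay near the filter. The summed signal of the neuronal list was 965 to 1040 with miR-376a*A, 622 to 796 with miR-376a*G and 715 to 887 in control. The part of these marker levels in the results below was not tested.

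FGF2, basic fibroblast growth factor, was lowest in the cells given miR-376a*A. Its brightest probe set, 204422_s_at, read 89.4, 84.15 and 55.55 on the miR-376a*A arrays, 213, 228.5 and 247 on the miR-376a*G arrays, and 98.7, 269 and 271 on the control arrays. All 3 miR-376a*A arrays lay below every other array, and control replicate 1 lay close above them, far below the other controls. The second probe set, 204421_s_at, again had miR-376a*A lowest, on a narrower range: 77.3, 73.9 and 64.6 under miR-376a*A, 127, 113 and 119 under miR-376a*G, and 91.4, 114 and 122 in control.

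Between the forms, FGF2 was 2.65-fold lower under miR-376a*A than under miR-376a*G (log2 difference -1.41, SE 0.30, limma adjusted p = 0.0342). The second probe set of FGF2 gave -0.61 (SE 0.12, adjusted p = 0.0273 over all probe sets tested). Against control the log2 difference with miR-376a*A was -1.20 (SE 0.30) and missed the threshold at adjusted p = 0.0593. Leaving out control replicate 1 gave -1.63 (SE 0.14), a 3.09-fold fall with adjusted p = 2.0e-05, and the second probe set then fell by 0.57 on the log2 scale (adjusted p = 0.00403). With miR-376a*G the difference from control was 0.20 (SE 0.30, adjusted p = 0.783) with all arrays and -0.21 (SE 0.14, adjusted p = 0.328) without that array. So miR-376a*G and control are neighbours in the order of FGF2 levels that did not differ beyond their spread. The call between the forms was lost on leaving out any one of the 6 arrays compared, with adjusted p of at least 0.10 and up to 0.165. It held without any one control array. Without control replicate 1, the SE between the forms was 0.12 in place of 0.30, and limma's adjusted p was 2.74e-05. In extracts of whole cultures, fewer cells expressing a transcript and less of it per cell cannot be told apart.

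FGF5, another secreted FGF, was highest with miR-376a*G. Probe set 208378_x_at read 61.6, 68.2 and 75.4 under miR-376a*A, 204.5, 154 and 188 under miR-376a*G, and 123, 73.3 and 70.0 in control. All miR-376a*G arrays were above the other 6, while miR-376a*A and control overlapped. Here control replicate 1 was the highest control. In 210310_s_at the signals were 33.7, 57.5 and 37.2 under miR-376a*A, 124.5, 104 and 126 under miR-376a*G, and 79.1, 64.6 and 53.6 in control. The last probe set, 210311_at, was dim at 22.75 to 42.8 over all arrays and passed in no comparison. The suffix _x_at marks probe sets of which some probes can match other transcripts.

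FGF5 rose with miR-376a*G by 0.93 on the log2 scale (SE 0.21, 1.90-fold, limma adjusted p = 0.0330) and was 2.31-fold lower under miR-376a*A than under miR-376a*G (-1.21, SE 0.21, adjusted p = 0.0128). The probe set 210310_s_at gave 0.72 against control (adjusted p = 0.0593) and -1.17 between the forms (adjusted p = 0.00749). Against control, miR-376a*A differed by -0.28 (SE 0.21, adjusted p = 0.601). Blocked by replicate number, the rise had an adjusted p of 0.0530. It was 1.20 (adjusted p = 0.000116) without control replicate 1 and was lost without any one of the other 8 arrays, at 0.0591 to 0.141. The difference between the forms was lost without miR-376a*A replicate 1 (0.0746) or 2 (0.0679) or miR-376a*G replicate 1 (0.0739) or 3 (0.0700).

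**Figure D1:**
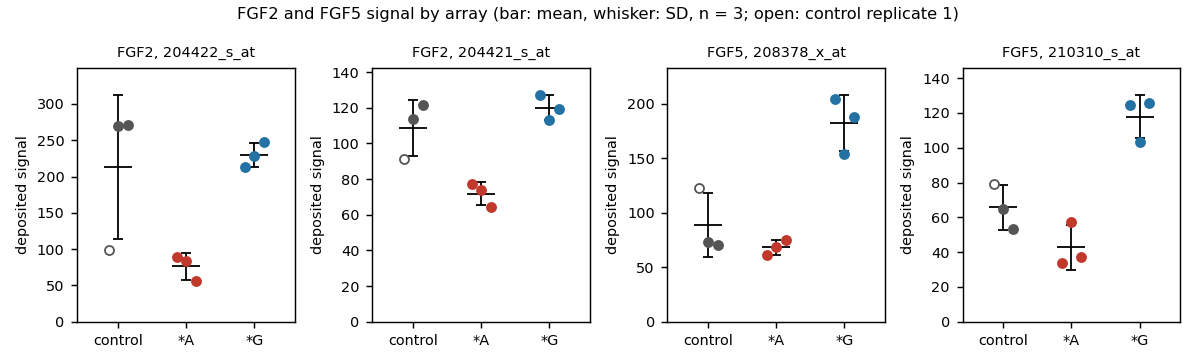
Deposited signal (linear units, axis from 0) of 2 probe sets each of FGF2 and FGF5 on every array, by group, with the group mean as a bar and the SD over 3 arrays as a whisker; the open circle is control replicate 1. The miR-376a*A arrays are the lowest for FGF2 (55.55 to 89.4 in 204422_s_at) and the miR-376a*G arrays the highest for FGF5 (154 to 204.5 in 208378_x_at).

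FGFR1, the receptor tyrosine kinase of the set, had 7 probe sets. The brightest, 226705_at, read 464, 413 and 453 under miR-376a*A, 505, 500 and 481 under miR-376a*G, and 548, 483 and 451 in control. The log2 difference was -0.16 (95% interval -0.40 to 0.07) with miR-376a*A against control, -0.02 (-0.26 to 0.21) with miR-376a*G against control and -0.14 (-0.38 to 0.09) between the forms. None of the 7 probe sets passed limma's test in any of the 3 comparisons, with all arrays or without control replicate 1. Their log2 differences lay between -0.25 and 0.13.

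The DUSP phosphatases of the set moved in both directions, and none of their probe sets passed limma's test between the forms. DUSP6, the cytoplasmic ERK phosphatase, read 718, 635.5 and 576 under miR-376a*A, 600, 624 and 615 under miR-376a*G, and 229, 438 and 416 in control (probe set 208892_s_at). Every treated array was above every control array, and control replicate 1 was the lowest. Its probe set 208891_at read 563, 469 and 492, then 512, 501 and 405, and 144, 335 and 255 in the same order. In 208893_s_at the signals were 370, 382 and 390 under miR-376a*A, 389, 365 and 409 under miR-376a*G, and 257, 219 and 191.5 in control, and there control replicate 1 was the highest control.

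By its brightest probe set DUSP6 rose 1.76-fold with miR-376a*A (log2 0.82, SE 0.19, limma adjusted p = 0.0468 over all genes, or 0.0506 over all probe sets). With miR-376a*G the value was 0.75 (SE 0.19), just short of the threshold at adjusted p = 0.0528, and the difference between the forms was 0.06 (95% interval -0.36 to 0.48, adjusted p = 0.988). Both other probe sets rose with each form: 208891_at by 1.05 and 0.94 (adjusted p = 0.0333 and 0.0452 over all probe sets), 208893_s_at by 0.73 and 0.75 (0.02025 and 0.0153). On 8 arrays, control replicate 1 being left out, the brightest gave 0.56 (adjusted p = 0.00284) and 0.50 (0.00516), and 208893_s_at 0.87 and 0.89. The call with miR-376a*A was lost without any one of the 6 treated arrays, at 0.0861 to 0.200. For miR-376a*G a block by replicate number ended the call of 208891_at (0.0820) and kept that of 208893_s_at (0.0426).

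DUSP4, a nuclear phosphatase of MAP kinases, differed between its probe sets in how the controls read. In 204014_at the signals were 578.5, 595 and 601 under miR-376a*A, 568, 510 and 496 under miR-376a*G, and 330, 354 and 337 in control. In 226034_at they were 429, 417 and 422, then 379, 395.5 and 394, and 139, 269 and 258. In both, every treated array exceeded every control. The brightest probe set, 204015_s_at, read 614, 643 and 660 under miR-376a*A, 557, 483 and 610 under miR-376a*G, and 625, 433 and 403 in control, so that control replicate 1 alone overlapped the treated arrays.

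DUSP4 rose in 204014_at by 0.74 with miR-376a*A (SE 0.09, adjusted p = 0.00163 over all probe sets in limma) and by 0.56 with miR-376a*G (SE 0.09, adjusted p = 0.00681). In 226034_at it rose by 0.92 (adjusted p = 0.0231) and 0.79 (adjusted p = 0.0380, or 0.0607 blocked by replicate number). The brightest probe set gave 0.39 (SE 0.16, adjusted p = 0.273) and 0.17 (SE 0.16, adjusted p = 0.632), neither of them a call. Without control replicate 1 it rose by 0.58 (adjusted p = 0.00170) and 0.36 (adjusted p = 0.0195). Between the forms none of the 3 probe sets passed, and the brightest differed by 0.22 (95% interval -0.13 to 0.57). In all 3, every miR-376a*A array read above every miR-376a*G array. Such separation between the forms, in either direction, was found for 3686 of 12505 genes.

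DUSP5, a nuclear phosphatase specific for ERK, went the other way. Its only probe set read 154, 169 and 159 under miR-376a*A, 159, 156.5 and 165 under miR-376a*G, and 214, 223.5 and 249 in control. Both treated groups lay together and below all controls, control replicate 1 included. DUSP5 fell by 0.48 with miR-376a*A (SE 0.10, limma adjusted p = 0.0245) and by 0.50 with miR-376a*G (SE 0.10, 1.41-fold, adjusted p = 0.0190). Between the forms the difference was 0.01 (95% interval -0.21 to 0.23). The sizes did not depend on control replicate 1, being -0.49 and -0.50 without it. Blocked by replicate number, the fit with miR-376a*G had an adjusted p of 0.0620. The call with miR-376a*A was lost without control replicate 3 (0.0622) or any one of the 6 treated arrays (0.0502 to 0.136). The call with miR-376a*G was lost without miR-376a*G replicate 1, 2 or 3 (0.0821, 0.0999 and 0.0691).

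**Figure D2:**
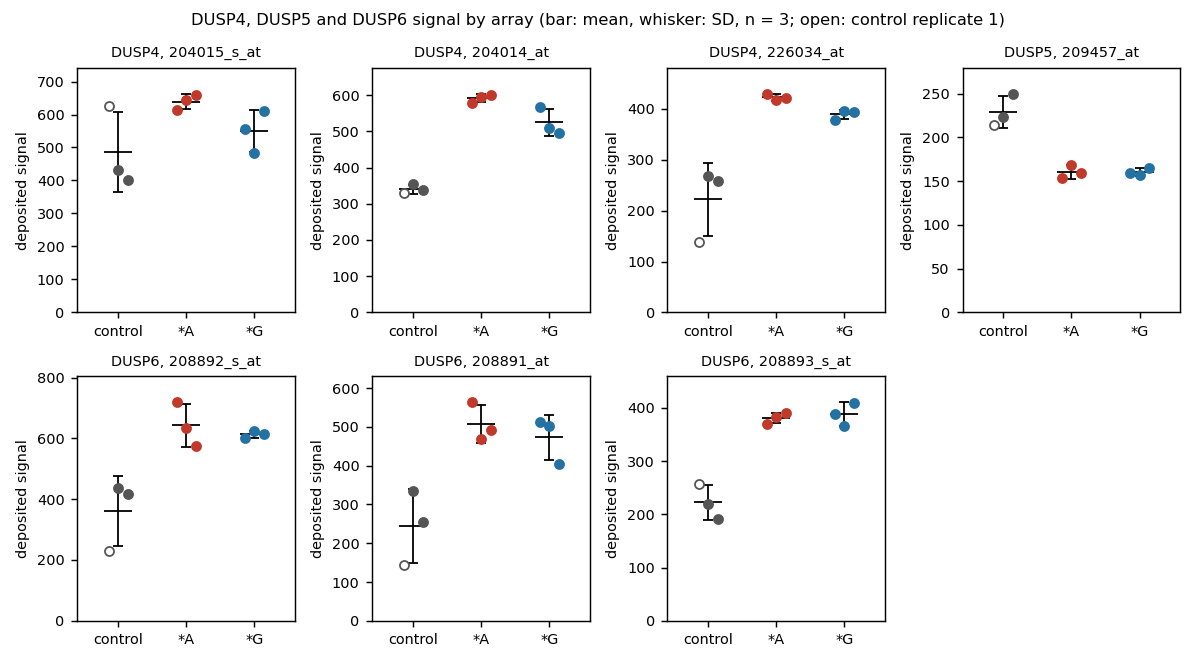
Deposited signal (linear units, axis from 0) of every probe set of DUSP4, DUSP5 and DUSP6 on every array, by group, with the group mean as a bar and the SD over 3 arrays as a whisker; the open circle is control replicate 1. The treated arrays lie above the controls in all DUSP6 panels and in 2 of 3 DUSP4 panels, and below them for DUSP5 (154 to 169 against 214 to 249).

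The Sprouty genes differed little between groups. SPRY2 read 310, 300 and 318 under miR-376a*A, 264, 281 and 291 under miR-376a*G, and 278, 304 and 358 in control. The log2 differences against control were -0.04 (95% interval -0.26 to 0.19) and -0.19 (-0.42 to 0.03), and 0.16 (-0.07 to 0.38) between the forms. SPRY4 read 277, 277 and 269, then 286, 296 and 295.5, and 267, 248 and 241 in the same order. Its differences against control were 0.10 (SE 0.10, limma adjusted p = 0.736) with miR-376a*A and 0.17 (SE 0.10, adjusted p = 0.452) with miR-376a*G. SPRY4 rose with miR-376a*G once control replicate 1 was left out, by 0.25 (adjusted p = 0.0388 over all genes, or 0.0527 over all probe sets), a 1.19-fold change.

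For SPRED1 the result rested on control replicate 1. The brightest probe set, 226837_at, read 375, 386 and 306.5 under miR-376a*A, 279, 235 and 227 under miR-376a*G, and 114, 407 and 429 in control. The miR-376a*G arrays were below all miR-376a*A arrays and below control replicates 2 and 3, while control replicate 1 was lower than any other array. With all arrays no comparison passed: the log2 differences were 0.33 (SE 0.37), -0.19 (SE 0.37) and, between the forms, 0.52 (SE 0.37, adjusted p = 0.784). With control replicate 1 left out, SPRED1 fell with miR-376a*G by 0.73 (SE 0.11, 1.66-fold, limma adjusted p = 0.00156) and was higher under miR-376a*A than under miR-376a*G by 0.51 (adjusted p = 0.00795), and miR-376a*A against control gave -0.22 (adjusted p = 0.243).

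The second probe set of SPRED1, 235074_at, ordered the forms the other way: 74.0, 74.9 and 75.4 under miR-376a*A, 103, 111 and 88.9 under miR-376a*G, and 67.1, 131 and 111 in control. Without control replicate 1 it fell with miR-376a*A by 0.55 (adjusted p = 0.00964 over all probe sets in limma), gave -0.19 with miR-376a*G (adjusted p = 0.285), and -0.36 between the forms (adjusted p = 0.0550). The direction between the forms therefore depends on the probe set. Another SPRED1 probe set, 244439_at, was under the filter at 1.88 to 24.1.

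SPRED2 read 197, 200 and 187 under miR-376a*A, 166, 193 and 187 under miR-376a*G, and 80.0, 160 and 204 in control (212458_at). Control replicate 1 again stood lowest, and the treated arrays lay between control replicates 2 and 3. The log2 differences against control were 0.46 (SE 0.23, adjusted p = 0.401 in limma) and 0.36 (SE 0.23, adjusted p = 0.476), and 0.14 and 0.03 without that array. Its other 2 probe sets had signals of at most 2.39 and were not tested.

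**Figure D3:**
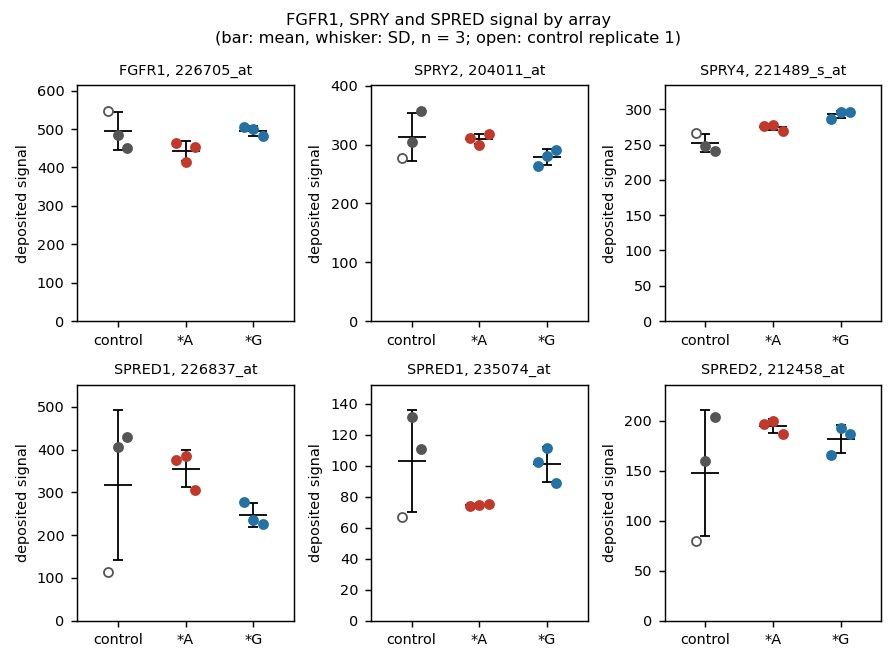
Deposited signal (linear units, axis from 0) of the brightest probe set of FGFR1, SPRY2, SPRY4, SPRED1 and SPRED2 and the second probe set of SPRED1 on every array, by group, with the group mean as a bar and the SD over 3 arrays as a whisker; the open circle is control replicate 1. That array is lowest for SPRED1 (114 in 226837_at) and SPRED2 (80.0), and the SPRED1 panels differ in which miRNA form reads lower.

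Counted over the set, 2 of 10 genes passed limma's test with miR-376a*A against control, DUSP6 higher and DUSP5 lower, where 3.33% of all 12505 genes passed. With miR-376a*G against control 2 of 10 passed, FGF5 higher and DUSP5 lower, against 4.62% of all genes. Blocked by replicate number, neither passed limma's test there (adjusted p = 0.0530 and 0.0620). Between the forms 2 of 10 passed, FGF2 and FGF5, both lower with miR-376a*A, against 2.63% of all genes. Both comparisons with control use the same 3 control arrays. By normalized values of the brightest probe set, the groups compared did not overlap in 3, 4 and 7 of the 10 genes. Of all 12505 genes, 2562, 2714 and 3686 did not overlap. The median log2 difference of the 10 genes was 0.03, 0.17 and 0.04 in these comparisons, and that of all genes tested was 0.01, 0.01 and 0.00.

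Without control replicate 1 the counts were 4 of 10 with miR-376a*A (FGF2, DUSP4, DUSP5 and DUSP6), 6 of 10 with miR-376a*G (FGF5, DUSP4, DUSP5, DUSP6, SPRY4 and SPRED1) and 3 of 10 between the forms (FGF2, FGF5 and SPRED1). Of all genes 13.4%, 17.0% and 9.72% then passed. By probe set, with all arrays, 5 of 24 passed with miR-376a*A against 2.49% of all probe sets, 6 of 24 with miR-376a*G against 3.44%, and 4 of 24 between the forms against 1.84%. Of the 6 with miR-376a*G, only 204014_at of DUSP4 and 208893_s_at of DUSP6 still passed limma's test with the replicate number as a block (adjusted p = 0.0280 and 0.0426). Since the genes were picked with these results known, nothing about the set is read from these shares.

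**Figure D4:**
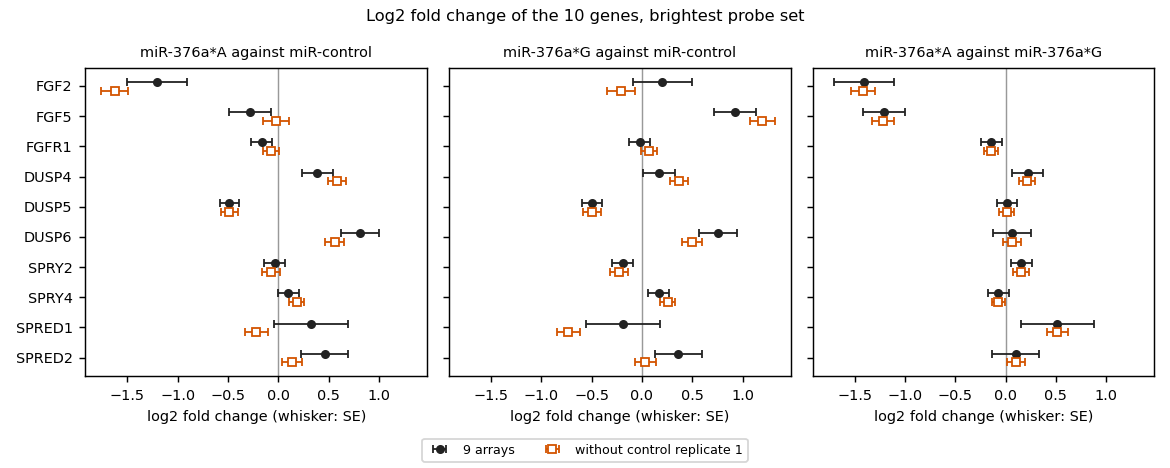
Log2 fold change (whisker: SE) of the brightest probe set of each of the 10 genes in the 3 comparisons, filled with all 9 arrays and open without control replicate 1. FGF2 lies left of 0 in both comparisons that hold miR-376a*A (-1.20 and -1.41), DUSP5 lies at -0.48 and -0.50 with the forms against control, and SPRED1 against control changes most with the array left out (0.33 to -0.22 and -0.19 to -0.73).

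Of 107 other genes of the FGF and ERK pathway in 6 lists, 74 were tested. With miR-376a*A against control 2 rose and 2 fell, with miR-376a*G 5 rose and 2 fell, and between the forms 4 were higher and 4 lower with miR-376a*A. Those are 4, 7 and 8 of 74 genes, beside the shares of all genes given above, and the median log2 differences of the 74 were 0.02, -0.01 and -0.01. Of the 7 with miR-376a*G, 3 no longer passed with the replicate number as a block. Without control replicate 1 the counts were 8, 21 and 13 of 74, where 13.4%, 17.0% and 9.72% of all genes passed.

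With all arrays, none of 7 other FGF ligands tested and none of 7 other feedback inhibitors passed limma's test in the 3 comparisons, whose shares over all genes were 3.33%, 4.62% and 2.63%. Without control replicate 1 the ligands gave 0, 2 and 2 genes and the inhibitors 1, 2 and 0. Of all genes 13.4%, 17.0% and 9.72% then passed. Among 11 receptors and co-receptors SDC4, a heparan sulphate proteoglycan that presents FGF to its receptor, fell with miR-376a*A from a signal of 1537 ± 255 in control to 919 ± 52.55 (SD, n = 3; log2 -0.70, SE 0.08, limma adjusted p = 0.00149). It was also lower than with miR-376a*G, where it read 1231 ± 56.8 (log2 -0.46, adjusted p = 0.0176, lost without any one of the 6 arrays compared at 0.0512 to 0.101). For the 11 receptors and co-receptors the counts were 1, 0 and 1, and 1, 1 and 2 with control replicate 1 left out, beside the same shares.

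In the RAS-ERK cascade, 2 of 22 genes passed in each comparison, where 3.33%, 4.62% and 2.63% of all genes passed. With control replicate 1 left out the counts were 3, 4 and 2, where 13.4%, 17.0% and 9.72% of all genes passed. LAMTOR3, a scaffold that holds MEK and ERK on late endosomes, rose to 269 ± 22.0 under miR-376a*A and to 312 ± 30.3 under miR-376a*G, from 87.1 ± 14.2 in control (SD, n = 3), log2 changes of 1.50 and 1.68 (limma adjusted p = 0.000223 and 0.000172). RPS6KA3, the ERK-activated kinase RSK2, fell with miR-376a*A from 335 ± 91.8 to 172 ± 16.2 (log2 -0.89, adjusted p = 0.0322) and was lower than with miR-376a*G by 1.00 (adjusted p = 0.0206). Its second probe set gave -0.40 (adjusted p = 0.239) and -0.69 (adjusted p = 0.0455). KSR1, a scaffold of RAF, MEK and ERK, fell with miR-376a*G from 163 ± 31.4 to 94.0 ± 6.43 (log2 -0.69, adjusted p = 0.0213, or 0.0620 with the replicate number as a block) and was higher with miR-376a*A by 0.68 (adjusted p = 0.0310), while its second probe set gave 0.08 and -0.06. The LAMTOR3 calls held without any one array. The RPS6KA3 fall against control was lost without any one miR-376a*A array (0.0902 to 0.143), control replicate 2 (0.0870) or 3 (0.0905), or miR-376a*G replicate 1 (0.0552) or 2 (0.0605). Its difference between the forms was lost without any one of the 6 arrays compared other than miR-376a*G replicate 3 (0.0657 to 0.118). For KSR1 the fall was lost without any one miR-376a*G array (0.0721 to 0.104) or control replicate 3 (0.0570), and the difference between the forms without any one of the 6 arrays compared (0.0828 to 0.153).

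Of 5 other MAPK phosphatases DUSP7, a cytoplasmic ERK phosphatase related to DUSP6, fell with miR-376a*G from 298 ± 32.8 to 158 ± 22.3 (SD, n = 3; log2 -0.89, SE 0.12, limma adjusted p = 0.00295). With miR-376a*A it read 318 ± 19.7, higher than with miR-376a*G by 0.95 (adjusted p = 0.00226). Both calls held without any one of the 9 arrays. DUSP10, which acts on p38 and JNK, was higher under miR-376a*A than under miR-376a*G by 0.54 (adjusted p = 0.0465), a call lost without any one of the 6 arrays compared (0.113 to 0.231) or without control replicate 2 (0.0667). Its other probe set gave 0.53 (adjusted p = 0.145 over all probe sets). With control replicate 1 left out, the counts for these 5 phosphatases went from 0, 1 and 2 to 0, 3 and 2. The shares of all genes went from 3.33%, 4.62% and 2.63% to 13.4%, 17.0% and 9.72%.

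With all 9 arrays, 4 of 22 ERK-induced genes rose and none fell with miR-376a*G (4.62% of all genes passed), and 1 rose and none fell with miR-376a*A (3.33%). With control replicate 1 left out, 7 rose and 2 fell with miR-376a*G (17.0% of all genes passed), and 3 rose and none fell with miR-376a*A (13.4%). The genes that then fell were FOSL1, a subunit of AP-1 (-0.51, limma adjusted p = 0.0208), and CCND1, cyclin D1 (-0.35, adjusted p = 0.0437), both named after their values were seen. With miR-376a*G the transcription factor EGR1 rose from 119 ± 51.7 to 339 ± 7.53 (log2 1.50, SE 0.27), the cytokine LIF from 179 ± 19.6 to 381 ± 34.5 (1.01, SE 0.13), the receptor EPHA2 from 525 ± 27.6 to 722 ± 23.2 (0.43) and the urokinase receptor PLAUR from 640 ± 64.2 to 826 ± 32.9 (0.36; SD, n = 3). Their limma adjusted p were 0.0114, 0.00200, 0.0244 and 0.0457, and with replicates as a block EPHA2 (0.0704) and PLAUR (0.101) no longer passed. PLAUR also rose with miR-376a*A (0.41, adjusted p = 0.0298), whereas EGR1 then gave 0.88 (adjusted p = 0.128, or a rise of 0.51 with 0.0204 without control replicate 1). Between the forms LIF (-0.92, adjusted p = 0.00355) and EPHA2 (-0.45, adjusted p = 0.02665) were lower with miR-376a*A and EGR3 was higher (0.70, adjusted p = 0.03775). Further probe sets did not all pass. For PLAUR 2 others gave 0.34 (adjusted p = 0.535 over all probe sets) and 0.28 (0.366) with miR-376a*A, and 0.36 (0.432) and 0.21 (0.447) with miR-376a*G. For EGR1 with miR-376a*G 2 others gave 1.05 (adjusted p = 0.00151) and 0.76 (0.292). The LIF calls held without any one array. The EGR1 rise was lost without any one miR-376a*G array (0.0511 to 0.0599), and that of EPHA2 without any one array (0.0501 to 0.123) other than miR-376a*A replicate 1 or control replicate 1. The PLAUR rise with miR-376a*G was lost without any one treated array or control replicate 3 (0.0836 to 0.169). Its rise with miR-376a*A was lost without any one miR-376a*A array, miR-376a*G replicate 1 or 2, or control replicate 3 (0.0598 to 0.154). Between the forms, EPHA2 was lost without any one of the 6 arrays compared (0.0813 to 0.154), and EGR3 without any of them but miR-376a*A replicate 3 (0.123 to 0.170).

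**Figure D5:**
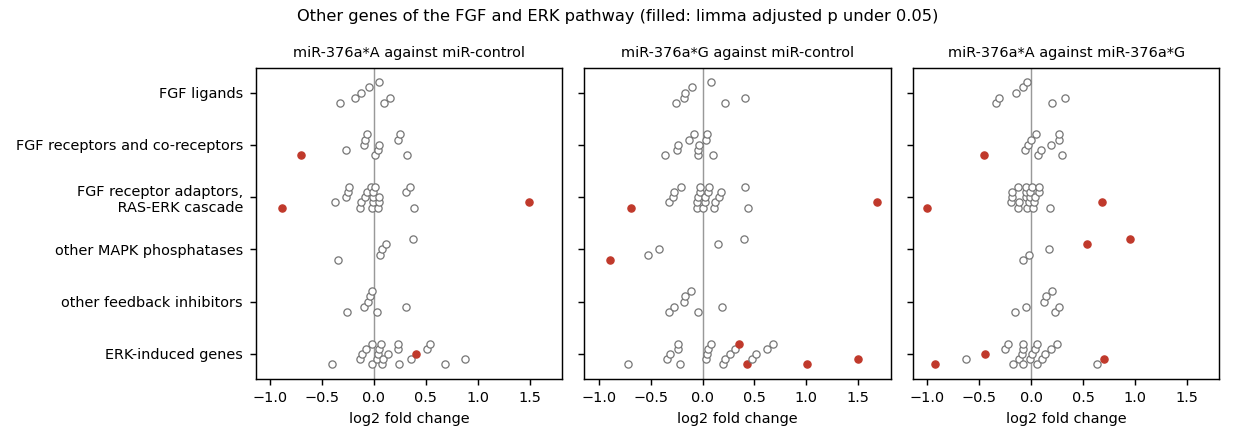
Log2 fold change of the 74 other FGF and ERK pathway genes by list in the 3 comparisons, each circle a gene, filled where limma's adjusted p was under 0.05; vertical offsets within a list only separate the circles. Filled circles number 4, 7 and 8, with LAMTOR3 farthest to the right against control (1.50 and 1.68).

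The 5 genes whose log2 values over the 9 arrays were most like those of FGF2, among 12502 genes compared, were PTPN21 (Pearson r = 0.993), NEXN (0.991), RNF150 (0.985), ISOC1 (0.984) and MOSPD1 (0.979). All had values below control with miR-376a*A, from -0.36 for NEXN to -0.72 for ISOC1. Most like DUSP6 were NEK2 (0.996), CCDC28A (0.994), FUT8-AS1 (0.993), VEZF1 (0.992) and RHPN2 (0.991), with values from 0.41 to 1.19 with miR-376a*A and 0.38 to 1.13 with miR-376a*G against control. Without control replicate 1, r was 0.984 to 0.992 for the FGF2 group and 0.972 to 0.996 for the DUSP6 group. These correlations share the 9 arrays and their 3 groups. The genes were picked by this likeness on the same arrays, so the directions of their differences follow from the choice.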

How the data were processed

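RNA was hybridised to Affymetrix arrays. The authors deposited 1 linear signal intensity per probe set and array, made with GCOS 1.4.0.036 per the submitters' processing notes; chip images were not used here. The 2%-trimmed mean of each array was 100.0. Array medians ranged over 0.20 on the log2(signal + 16) scale, above the limit of 0.1 set for it, so values were quantile normalized. Probe sets with 1 gene symbol (41097; 1801 had several and 11777 none) were named from the platform annotation, updated through RefSeq (41043 matched). Those with a mean at or above the 50th percentile (5.17) were kept, and a gene was taken as its brightest probe set. All 3 groups were fitted together in limma 3.58.1 (R 4.3.3; lmFit, eBayes with a trend), with Benjamini-Hochberg adjustment over 12505 genes, or over 27338 probe sets in the fit by probe set, at a threshold of 0.05. Fold changes are on the log2(signal + 16) scale, which understates dim genes. The method was tested on simulated data with independent noise and the same spread in every group. These data held no deviant array and no correlation between same-numbered arrays, so the test does not cover either.

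The members and lists were chosen with earlier results of these data known. Named genes are the 10 members, up to 4 genes past the threshold per list and comparison, and the 5 most like FGF2 and DUSP6. An exact permutation test of 3 arrays against 3 cannot go below p = 0.1. The number of arrays limits the precision. Deviations of same-numbered arrays correlated at 0.156, 0.187 and 0.125 between miR-376a*G and control, so the pairing by number was taken to hold there, though no label ties those arrays to one culture or day; values blocked by replicate number stand beside results they change. Alternatives were the normalization, pseudocount, filter, probe set rule, arrays fitted, block, weights, trend and leaving out each array.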

Additional observations from a re-analysis of the deposited data

Results flagged for a closer look

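FGF2 and FGF5 were marked for a closer look because the effect of the miRNA, each form against the same control arrays, differed between the forms by the direct test. The log2 difference of miR-376a*A against miR-376a*G was -1.41 for FGF2 and -1.21 for FGF5. All 3 arrays of one form lay below all 3 of the other for both genes. The same held, in either direction, for 7 of the 10 genes and for 3686 of all 12505 genes tested. The summed signal of the neuronal markers differed between the same arrays (965 to 1040 against 622 to 796), and its part in the result was not tested. That sum is mostly SYT1 and SNAP25 (median signals over the arrays of 468 and 380), the other genes of the list having medians of at most 30.25.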

How the results depend on the processing

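With miR-376a*A against control, 2 of the 10 genes passed limma's test. The count was 1 without further normalization, with no filter, with a filter at the 25th percentile or with eBayes without the trend (DUSP6 then at adjusted p = 0.0588), 0 with median centring, with only the 6 arrays compared or with the replicate number as a block, 4 with the mean of a gene's probe sets or with array weights, and 0 to 4 on leaving out 1 array. For miR-376a*G against control (2), it was 1 with median centring or no filter, 4 with the mean of probe sets, 0 with 6 arrays or the block, 6 with weights and 0 to 6 on leaving out 1 array. Between the forms (2), it was 1 with median centring, no filter or the block, 4 with weights and 0 to 3 on leaving out 1 array.

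The counts of other pathway genes were 4, 7 and 8 in the same order. They were 2, 3 and 13 with 6 arrays, 2, 4 and 2 with the replicate number as a block, and 11, 24 and 16 with weights. The last was also 4 with median centring and 5 with no filter. Leaving out 1 array gave 2 to 8, 3 to 21 and 2 to 13. Of all genes 417, 578 and 329 passed. These became 156, 204 and 1292 with 6 arrays and 2315, 2427 and 1656 with weights, the second was 360 with the block, and leaving out 1 array gave 176 to 1670, 236 to 2124 and 143 to 1215. The highest counts of these ranges came without control replicate 1.

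Of 600 values of the 10 genes under 20 alternatives, 509 kept direction and side of the threshold, 53 lost their call, 22 gained one and 16 turned direction. The turned values were of genes not past the threshold. Against control with miR-376a*A, SPRY2 was 0.059 with median centring and -0.073 to 0.036 on leaving out 1 array, and SPRED1 was -0.13 with weights and -0.22 to 0.62. With miR-376a*G, FGF2 was -0.20 with weights and -0.21 to 0.41, SPRED1 was -0.73 to 0.11, and FGFR1 was 0.0072 without normalization, 0.071 with median centring, 0.047 with weights and -0.092 to 0.068. Between the forms DUSP5 was -0.017 to 0.045 and DUSP6 -0.026 to 0.15. The cause was not tested. Same-numbered arrays did not deviate together in the other pairings (r of -0.361 to 0.0315 between miR-376a*A and control and -0.0984 to -0.0313 between the forms), so the block is given there only as a count.

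Only 3 arrays a group and 1 control array apart from the rest limit these results.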
